A study of Mus musculus with 18 samples.

Results

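Glutamate receptors other than the AMPA type, and the scaffold and adhesion proteins that hold receptors in the postsynaptic density, were followed through 37 genes of the 23420 in the deposited count table. They were taken from a list of names: 6 NMDA receptor subunits, 5 kainate receptor subunits, 6 metabotropic receptors, the delta receptor Grid1, 4 Dlg genes, 4 Dlgap genes, 3 Shank genes, 3 Homer genes, Baiap2 and 4 Lrrtm genes. Every listed gene was in the table and passed the filter on low counts in all 11 comparisons. The libraries came from mouse brain, and the design text places the implanted glioma cells in the cortex. All mice, controls included, carried the genotype Camk2a-Cre-Rpl22HA, in which Cre under Camk2a regulation, active mainly in forebrain excitatory neurons, puts an HA tag on Rpl22, a protein of the large ribosomal subunit. RNA was taken from the tissue before pull-down (input) and from polysomes pulled down through the tag (IP). The 3 conditions were control mice without tumor, tumor mice, and tumor mice given AZD8055, a kinase inhibitor of mTOR (AZD). Each condition gave 3 input and 3 IP libraries, 18 in 6 groups. The sources used here do not give the age of the mice, the glioma line, or the dose and time of AZD8055.

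NMDA receptors are ion channels built from the obligatory subunit Grin1 and Grin2 or Grin3 subunits, and they open when glutamate and a co-agonist bind and the membrane is depolarised. Kainate receptors are related channels on both sides of the synapse, and metabotropic glutamate receptors signal through G proteins. Behind the membrane, Dlg proteins bind receptor tails, Dlgap proteins bridge Dlg to Shank, and Homer ties Shank to metabotropic receptors and to calcium stores.

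Library totals lay between 13561511 and 34178417 counts, and single members between 20 counts (the lowest of Homer3) and 27576 (the highest of Dlg2). CPM below are counts scaled to a common library total after TMM scaling, which sets libraries on a common scale through the bulk of their genes, and log2 folds are differences between group means in the fit with their standard errors. A gene is called when its p from edgeR's quasi-likelihood test, adjusted over all genes tested, is under 0.05. The library names fall into 3 sets, 1 for control and tumor input, 1 for control and tumor IP, and 1 for all AZD libraries. In AZD against tumor or control the set and the treatment cannot be told apart, nor can the set and the fraction in control or tumor IP against input. Tumor replicate 1 stood apart from the other tumor replicates in both fractions: Grm3, for instance, was at 53.6 CPM in IP against 158 and 152 in the others, and at 45.6 CPM in input against 140 and 138. AZD replicate 1 stood apart too: counts of AZD replicates differed by a chi-square per gene of 26.2 and 31.1 in IP where replicate 1 was in the pair and 10.2 where it was not (23.2, 27.4 and 10.8 in input). By that measure control replicate 1 showed the same order, with 24.4 and 16.1 against 8.51 in IP (9.94, 13.4 and 6.77 in input). The 7 dividing cell markers of AZD replicate 1 summed to 142 CPM in IP against 53.3 and 56.8, and to 737 in input against 237 and 299.6.

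The summed level of 7 excitatory neuron markers (among them Slc17a7, Camk2a and Nrgn) was 3075 to 3783 CPM in control IP, 1483 to 1869 in tumor IP and 3440 to 4149 in AZD IP. In input the control libraries had 2458 to 2742 CPM, the tumor libraries 910 to 1645 and the AZD libraries 1230 to 1650. The sum of 7 oligodendrocyte precursor and glioma lineage markers was 377 to 509 CPM in control IP, 4525 to 4883 in tumor IP and 488 to 679 in AZD IP, and 496 to 569, 5642 to 6555 and 2750 to 3999 in the matching inputs. None of these markers was at 0 in any group. Markers of other cell types were measured in IP too: the 7 astrocyte markers summed to 1817 to 2157 CPM in control IP and 1368 to 1619 in tumor IP, against 351 to 468 in AZD IP, and the 7 inhibitory neuron markers to 969 to 1109, 409 to 727 and 151 to 388. In libraries of mixed cells, fewer cells of a type and less RNA per cell cannot be told apart.

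Promoter sequence is shown for 4 members that differed in their response, chosen after their values were seen: Grm2 (lowest fold of the members in tumor IP), Shank3 (low with and without AZD8055), and Homer3 and Grik4 (higher in tumor). All 37 members had a RefSeq locus on GRCm38.p6, and 26 of them had promoter entries. The 250 bases before the listed start are printed 5′ to 3′ on the strand of the gene, with GC boxes (GGGCGG on either strand, a motif bound by Sp1-type factors) in capitals. They lie at chr9:106656110-106656359 (minus strand) for Grm2, chr15:89499358-89499607 (plus) for Shank3, chr8:70282749-70282998 (plus) for Homer3 and chr9:42944372-42944621 (minus) for Grik4. The listed starts of Shank3, Homer3 and Grik4 lie inside the RefSeq span of the gene.
Grm2: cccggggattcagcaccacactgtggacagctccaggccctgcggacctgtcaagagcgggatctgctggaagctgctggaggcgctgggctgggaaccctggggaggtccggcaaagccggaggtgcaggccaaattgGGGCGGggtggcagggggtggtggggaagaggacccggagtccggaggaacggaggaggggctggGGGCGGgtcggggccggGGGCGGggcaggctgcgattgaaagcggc
Shank3: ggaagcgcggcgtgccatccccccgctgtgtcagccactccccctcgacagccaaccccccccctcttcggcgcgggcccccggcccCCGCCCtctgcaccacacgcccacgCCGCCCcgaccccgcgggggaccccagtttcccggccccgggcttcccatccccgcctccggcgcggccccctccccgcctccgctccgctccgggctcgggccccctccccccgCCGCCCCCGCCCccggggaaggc
Homer3: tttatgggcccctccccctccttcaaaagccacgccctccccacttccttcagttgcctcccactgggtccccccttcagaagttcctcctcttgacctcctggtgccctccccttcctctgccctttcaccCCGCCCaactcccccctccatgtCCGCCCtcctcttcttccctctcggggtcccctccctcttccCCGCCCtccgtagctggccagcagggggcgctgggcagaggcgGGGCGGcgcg
Grik4: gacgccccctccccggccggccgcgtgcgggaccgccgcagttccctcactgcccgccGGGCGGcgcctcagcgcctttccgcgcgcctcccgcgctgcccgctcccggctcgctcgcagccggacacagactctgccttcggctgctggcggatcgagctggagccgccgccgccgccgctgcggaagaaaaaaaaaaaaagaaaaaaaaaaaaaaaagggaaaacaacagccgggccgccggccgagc
The genes that fell hold 3 GC boxes (Grm2) and 4 (Shank3), and the genes that rose hold 4 (Homer3) and 1 (Grik4). A GC box lay in 18 of the 41 promoter entries of members (43.9%) and in 32.74% of 32851 entries of all genes. The E-box CAGCTG lay in 6 of the 41 (14.63%) and in 13% of all, and the cyclic AMP response element TGACGTCA in 0 of the 41 and in 1.55% of all. These matches are a description of the printed windows only.

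The first comparison asked how RNA in the IP fraction differed between tumor and control mice. Glioma lineage markers were in that fraction too, with sums of 4525 to 4883 CPM in tumor IP against 5642 to 6555 in tumor input. In tumor IP, 23 of the 37 members fell and 5 rose against control IP, where 20.9% of all 15734 genes tested fell and 26.1% rose (47% called either way). The median log2 fold of the members was -0.66, and that of all genes tested was 0.02. All Dlg, Dlgap and Shank genes fell, as did 5 of 6 NMDA subunits and 5 of 6 metabotropic receptors. Grin3a, Grik3, Grik4, Homer3 and Lrrtm3 rose. The control and tumor libraries did not overlap in 29 of the 37 members, against 60.6% of all genes tested. Of the 7 excitatory neuron markers 6 fell in the same comparison, with a median log2 fold of -0.93, and so did 6 of 7 inhibitory neuron markers (-1.01) and 6 of 7 oligodendrocyte markers (-1.14). Their part in the members' change was not tested.

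**Figure D1:**
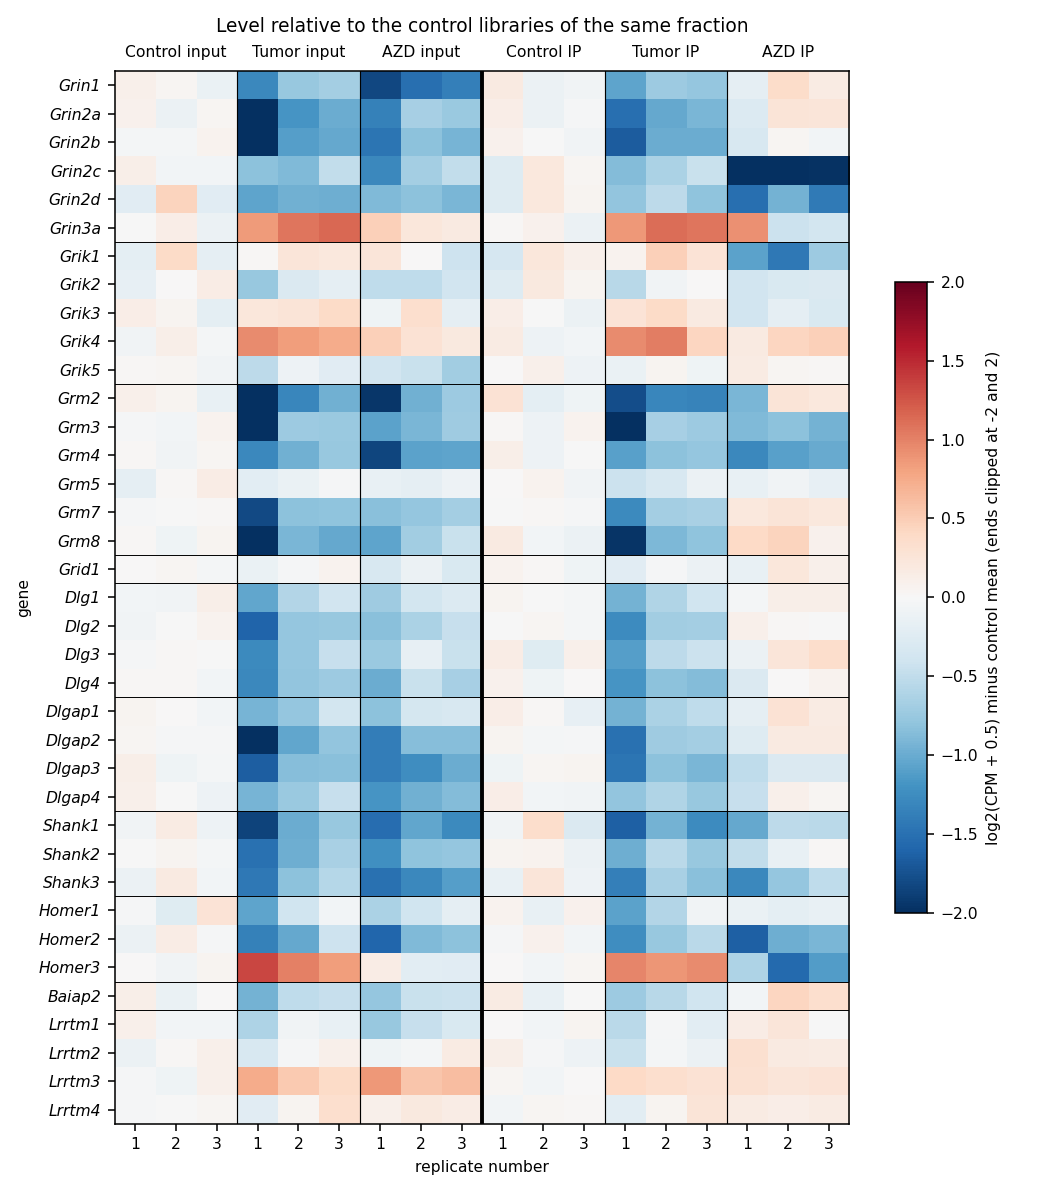
Level of each of the 37 genes in each of the 18 libraries, as log2(CPM + 0.5) minus the mean of the 3 control libraries of the same fraction, with colours clipped at -2 and 2. Genes run down in families and libraries across, blue is lower and red higher than control; the Dlg and Dlgap genes are blue in tumor input, AZD input and tumor IP and paler in AZD IP.

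Among the NMDA subunits, Grin1 stood at 212, 172 and 177 CPM in the control IP libraries, 89.9, 113 and 109 in those of tumor and 165, 239 and 210 in those of AZD. All tumor libraries lay below all control and AZD libraries, and control and AZD overlapped. The log2 fold was -0.82 ± 0.15 for tumor over control (adjusted p = 0.00115), 0.95 ± 0.15 for AZD over tumor (adjusted p = 0.000267) and 0.13 ± 0.14 for AZD over control (adjusted p = 0.52). In input the order differed: control libraries had 351, 334 and 298 CPM of Grin1, tumor libraries 133, 193 and 204, and AZD libraries 92.0, 115 and 127. There AZD lay below tumor in every library (log2 fold -0.63 ± 0.17, adjusted p = 0.0278), a call that was lost without tumor input replicate 2 or 3 or AZD input replicate 1 or 2, with adjusted p from 0.0721 to 0.0767.

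Grin2a and Grin2b encode the glutamate-binding subunits most abundant in adult forebrain. Grin2b was measured at 584, 550 and 525 CPM in the control IP libraries, 173, 278 and 278 in those of tumor and 444, 565 and 534 in those of AZD. Tumor lay below both other groups in every library. Its log2 fold was -1.16 ± 0.17 in tumor over control (adjusted p = 0.000379), 1.05 ± 0.17 in AZD over tumor (adjusted p = 0.00038) and -0.10 ± 0.17 in AZD over control (adjusted p = 0.669). Grin2a followed the same order, with 168, 141 and 150 CPM in the control IP libraries, 53.6, 74.7 and 80.7 in those of tumor and 126, 183 and 180 in those of AZD. In input neither gene differed between AZD and tumor past the threshold (log2 folds 0.49 ± 0.25 and 0.37 ± 0.28 for Grin2a and Grin2b), and both stayed below control (-0.89 ± 0.25 and -1.03 ± 0.28). The input calls against control were lost without control input replicate 3 or AZD input replicate 1, and that of Grin2a also without control input replicate 1, with adjusted p from 0.0549 to 0.0658.

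Grin2c and Grin2d, 2 further glutamate-binding subunits, did not follow that course. Grin2c was at 26.5, 36.7 and 32.4 CPM in the control IP libraries, 17.2, 20.2 and 23.0 in those of tumor and 4.42, 6.01 and 7.68 in those of AZD. The 3 groups did not overlap, and AZD IP was lowest, with a log2 fold of -1.74 ± 0.20 over tumor IP (adjusted p = 3.68e-05) and -2.37 ± 0.20 over control IP (adjusted p = 2.22e-05). In AZD input Grin2c was at 17.9, 27.6 and 31.8 CPM, which overlap the 25.1, 24.0 and 31.5 CPM of tumor input. Grin2d, known in cortex mainly from inhibitory neurons, was low throughout and stood at 5.32, 7.63 and 6.74 CPM in the control IP libraries, 3.53, 4.35 and 3.50 in those of tumor and 1.96, 3.14 and 2.13 in those of AZD. Its log2 fold was -0.76 ± 0.22 in tumor over control IP (adjusted p = 0.0163) and -0.66 ± 0.23 in AZD over tumor IP (adjusted p = 0.0314). The tumor call of Grin2c was lost without control IP replicate 2 (adjusted p = 0.071) or 3 (0.051), and that of Grin2d without control IP replicate 2 (0.0672) or 3 (0.0534) or tumor IP replicate 3 (0.0517). The AZD call of Grin2d was lost without tumor IP replicate 2 (0.102), AZD IP replicate 1 (0.0805) or AZD IP replicate 3 (0.105). Inhibitory neuron and astrocyte markers were lower in AZD IP than in tumor IP in 6 of 7 and 7 of 7 cases, with median log2 folds of -1.46 and -2.06; their part in the change of Grin2c and Grin2d was not tested.

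Grin3a, a glycine-binding subunit that lowers calcium entry through the channel, rose in tumor. It was at 84.4, 87.8 and 76.4 CPM in control IP and 151, 180 and 175 in tumor IP (log2 fold 1.05 ± 0.29, adjusted p = 0.0133), with no overlap. In input it went from 85.7, 94.9 and 79.7 to 157, 183 and 192 CPM (1.02 ± 0.12, adjusted p = 0.000126), and stood at 120, 101 and 98.5 in AZD input (-0.70 ± 0.12 over tumor, adjusted p = 0.0042). The AZD IP libraries were split, with 156 CPM in replicate 1, the library with the highest sum of dividing cell markers of the 3, and 61.2 and 63.8 in the others. AZD over tumor in IP was -0.89 ± 0.29 (adjusted p = 0.0232), a call lost without tumor IP replicate 2 (adjusted p = 0.0581) or 3 (0.0519) or AZD IP replicate 2 (0.0879) or 3 (0.0855). Against control IP the fold was 0.17 ± 0.29 (adjusted p = 0.7), and without AZD IP replicate 1 it turned to -0.41 (adjusted p = 0.0157). The 7 oligodendrocyte precursor and glioma lineage markers all rose in tumor IP (median log2 fold 3.49) and all were lower in AZD IP than in tumor IP (median -3.11), and their part in the level of Grin3a was not tested.

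**Figure D2:**
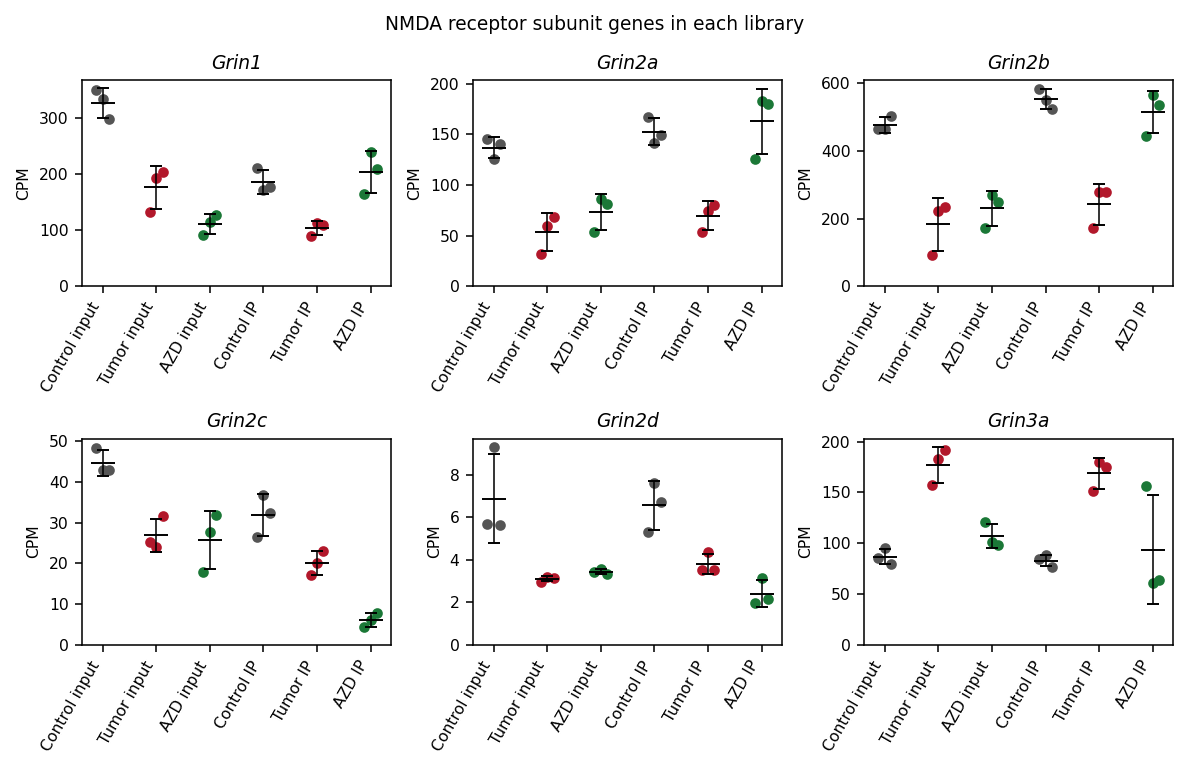
CPM of the 6 NMDA receptor subunit genes in each library, on axes that start at 0, with the mean (wide bar) and SD (whiskers) of 3 libraries a group. Grin1, Grin2a and Grin2b in AZD IP lie near control IP, Grin2c and Grin2d lie lowest in AZD IP, and 1 AZD IP library of Grin3a lies at 156 CPM apart from 61.2 and 63.8.

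Kainate receptor subunits showed no common fall. In tumor IP 2 of 5 rose and 0 fell, with 1 rising and 1 falling in input. Grik4, a high-affinity subunit that needs a partner from Grik1 to Grik3 to form a channel, was at 19.4, 16.1 and 16.6 CPM in control IP and 33.8, 35.5 and 23.5 in tumor IP (log2 fold 0.86 ± 0.16, adjusted p = 0.00148). Input gave the same picture, with 17.0, 19.5 and 17.4 CPM in control and 34.8, 32.5 and 30.2 in tumor (0.84 ± 0.12, adjusted p = 0.000485). With AZD, Grik4 was at 25.1, 22.0 and 20.7 CPM in input (-0.49 ± 0.12 over tumor, adjusted p = 0.0217) and at 19.6, 23.5 and 24.2 in IP (-0.48 ± 0.16, adjusted p = 0.022). The input call was lost without AZD input replicate 2 (adjusted p = 0.0748) or 3 (0.0867), and the IP call without tumor IP replicate 1 (0.0601) or 2 (0.088) or AZD IP replicate 1 (0.0692).

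Grik3 rose in tumor IP by 0.31 ± 0.10 on the log2 scale (adjusted p = 0.0246), a call lost without control IP replicate 2 (adjusted p = 0.075) or 3 (0.101) or tumor IP replicate 2 (0.0896), and it was lower in AZD IP than in tumor IP (-0.60 ± 0.10, adjusted p = 0.00042). Grik1, known in cortex mainly from inhibitory neurons, was at 11.7, 17.5 and 16.0 CPM in the control IP libraries, 15.7, 21.0 and 18.2 in those of tumor and 6.79, 5.20 and 8.83 in those of AZD. Every AZD library lay below every other IP library, with log2 folds of -1.42 ± 0.21 over tumor (adjusted p = 0.000229) and -1.11 ± 0.21 over control (adjusted p = 0.00277). In input Grik1 did not pass the test in either comparison (0.12 ± 0.20 in tumor over control, -0.16 ± 0.20 in AZD over tumor). Grik2 fell in tumor input (-0.41 ± 0.14, adjusted p = 0.0332), was -0.17 ± 0.15 in IP, and lost the input call without control input replicate 2 (adjusted p = 0.0867), control input replicate 3 (0.124) or tumor input replicate 1 (0.0718). Grik5, the other high-affinity subunit, stood at -0.03 ± 0.09 in tumor over control IP and at -0.29 ± 0.13 in input (adjusted p = 0.0837, or 0.046 without tumor input replicate 2).

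The lowest log2 fold of the 37 members in tumor IP was that of a metabotropic receptor. Grm2, a presynaptic inhibitory receptor coupled to Gi, was at 36.5, 26.0 and 28.2 CPM in the control IP libraries, 8.36, 11.8 and 11.5 in those of tumor and 15.7, 35.7 and 34.7 in those of AZD. Tumor lay below both other groups, and AZD overlapped control. The log2 folds were -1.48 ± 0.27 (tumor over control, adjusted p = 0.00148), 1.43 ± 0.28 (AZD over tumor, adjusted p = 0.00117) and -0.06 ± 0.26 (AZD over control, adjusted p = 0.885). In AZD input Grm2 was at 6.38, 13.1 and 15.5 CPM against 5.64, 10.2 and 13.0 in tumor input, which overlap.

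Grm7 and Grm8, presynaptic group III receptors, followed Grm2. Grm7 was at 95.5, 97.2 and 94.4 CPM in the control IP libraries, 39.4, 59.3 and 60.8 in those of tumor and 111, 114 and 111 in those of AZD, with log2 folds of -0.82 ± 0.14 and 1.04 ± 0.14 for the first and second step (adjusted p = 0.000859 and 0.000102). AZD IP lay above control IP in every library, by 0.23 ± 0.14, which did not pass (adjusted p = 0.231). Grm8 was at 39.3, 33.4 and 31.9, then 8.58, 18.4 and 19.7, then 45.7, 47.7 and 36.9 CPM. Its log2 folds were -1.13 ± 0.24 (adjusted p = 0.00357) and 1.44 ± 0.25 (adjusted p = 0.00053).

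Grm3 and Grm4 fell in tumor and did not pass between AZD IP and tumor IP. Grm3, a group II receptor that astrocytes also carry, was at 256, 235 and 265 CPM in the control IP libraries, 53.6, 158 and 152 in those of tumor and 137, 143 and 130 in those of AZD. AZD lay within the wide range of tumor (log2 fold 0.14 ± 0.30, adjusted p = 0.699) and below every control library (-0.89 ± 0.30, adjusted p = 0.0423), but the call against control was lost whichever 1 of the 6 libraries was left out (adjusted p from 0.0855 to 0.115). Grm4, another group III receptor, was at 27.1, 23.2 and 24.9 CPM in the control IP libraries, 11.5, 14.0 and 14.5 in those of tumor and 9.98, 11.5 and 12.2 in those of AZD. AZD over tumor was -0.27 ± 0.13 (adjusted p = 0.0913, and -0.36 with adjusted p = 0.0272 without tumor IP replicate 1), and AZD over control was -1.15 ± 0.13 (adjusted p = 9.75e-05). Grm5, the Gq-coupled receptor of the postsynaptic side, changed least of the 6: it was at 766, 803 and 731 CPM in control IP and 571, 615 and 703 in tumor IP, without overlap, at -0.26 ± 0.10 (adjusted p = 0.0588, and -0.35 with adjusted p = 0.0228 without tumor IP replicate 3). Grid1, the delta receptor that binds cerebellins, stood at -0.09 ± 0.11 in IP and -0.04 ± 0.10 in input.

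The Dlg family, scaffolds with PDZ domains, moved together. In tumor IP all 4 fell (log2 folds from -0.93 to -0.61), in AZD IP all 4 were higher than in tumor IP (0.67 to 0.86), and between AZD IP and control IP 0 of 4 passed (-0.06 to 0.16). Dlg4, which encodes PSD-95, was at 539, 481 and 510 CPM in the control IP libraries, 225, 288 and 278 in those of tumor and 415, 513 and 537 in those of AZD. Tumor lay below both groups in every library, with log2 folds of -0.93 ± 0.13 (adjusted p = 0.000226) and 0.86 ± 0.13 (adjusted p = 0.000194). Input showed the fall (control libraries at 514, 510 and 487 CPM, tumor libraries at 205, 292 and 303) and AZD libraries at 252, 370 and 319 CPM, which overlap tumor (0.26 ± 0.17, adjusted p = 0.299). The tumor IP call of Dlg3 was lost without control IP replicate 1 (adjusted p = 0.0562) or 3 (0.0553).

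The Dlgap genes, whose products link Dlg to Shank, did likewise: all 4 fell in tumor IP (-1.02 to -0.66) and all 4 were higher in AZD IP than in tumor IP (0.61 to 0.94). Dlgap2 was at 115, 107 and 109 CPM in the control IP libraries, 38.9, 66.8 and 68.4 in those of tumor and 91.6, 125 and 124 in those of AZD. The tumor libraries lay below the rest and AZD overlapped control. Dlgap3 was at 218, 239 and 240, then 84.0, 131 and 123, then 164, 190 and 189 CPM. AZD thus lay between the 2 other groups in every library, above tumor by 0.66 ± 0.15 (adjusted p = 0.00297) and at -0.36 ± 0.15 from control, which did not pass (adjusted p = 0.0804).

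Among the Shank genes all 3 fell in tumor IP, and 2 were also lower in AZD IP than in control IP. Shank2 was at 113, 114 and 101 CPM in the control IP libraries, 55.4, 75.4 and 64.1 in those of tumor and 77.4, 98.4 and 111 in those of AZD, which overlaps control. Shank3 was at 117, 153 and 119, then 49.6, 81.8 and 71.5, then 52.4, 74.7 and 90.5 CPM. AZD overlapped tumor and lay below every control library, with log2 folds of 0.08 ± 0.21 over tumor (adjusted p = 0.772) and -0.83 ± 0.21 over control (adjusted p = 0.0131, or 0.0621 without control IP replicate 2). Shank1 stood between, at 151, 203 and 130 CPM in the control IP libraries, 50.8, 81.7 and 65.8 in those of tumor and 77.7, 110 and 109 in those of AZD. Its AZD folds of 0.56 ± 0.21 over tumor (adjusted p = 0.0379) and -0.70 ± 0.21 over control (adjusted p = 0.0241) both passed. The first was lost without tumor IP replicate 1 or 3 or AZD IP replicate 2 or 3 (adjusted p from 0.0793 to 0.12), and the second without control IP replicate 2 (0.112) or AZD IP replicate 1 (0.0778).

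**Figure D3:**
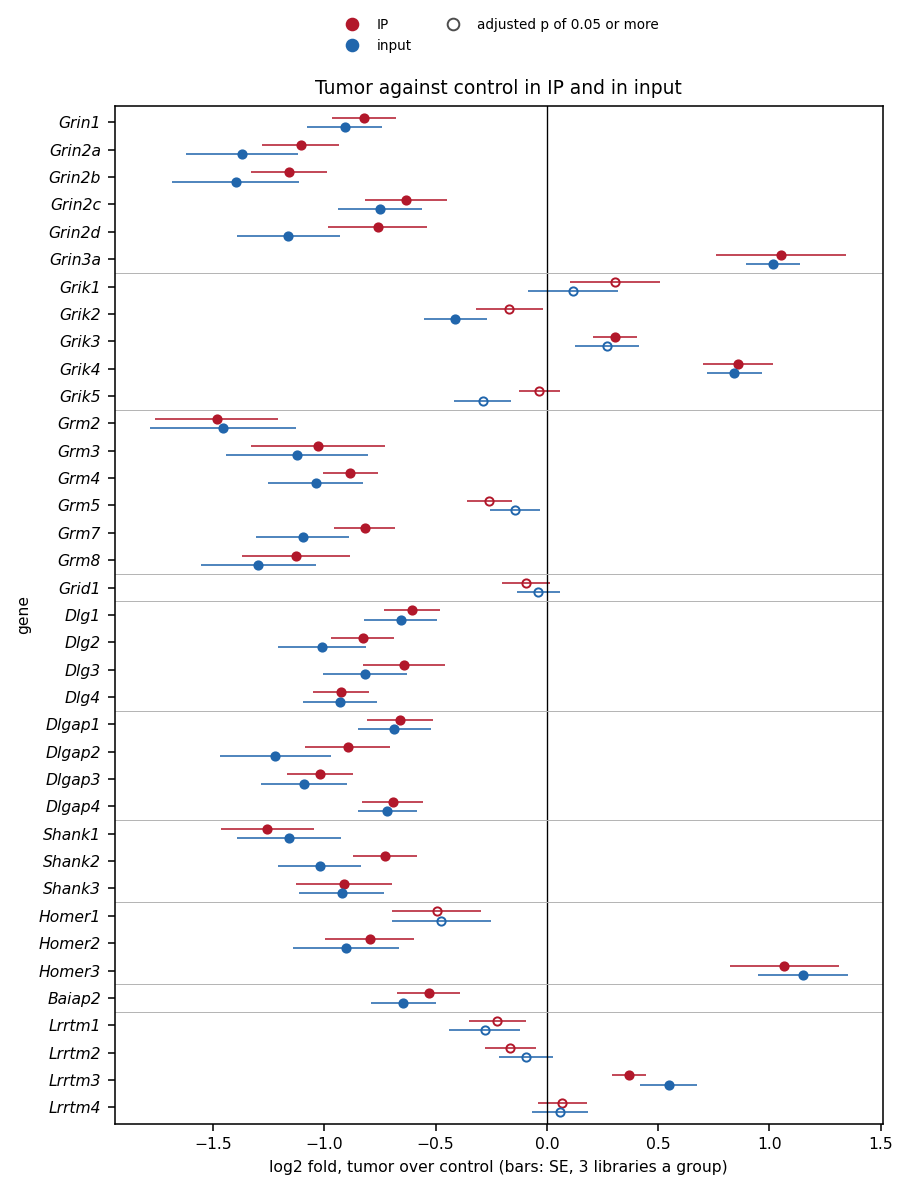
Log2 fold of tumor over control for each of the 37 genes in IP (red) and input (blue), with the standard error from the fit of 9 libraries a fraction; open symbols have an adjusted p of 0.05 or more. Dlg, Dlgap and Shank genes lie left of 0 in both fractions, and Grin3a, Grik4, Homer3 and Lrrtm3 lie right of it in both.

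Of the 3 Homer genes 1 fell, 1 rose and 1 did not pass in tumor IP. Homer1 was at 665, 572 and 678 CPM in control IP and 303, 424 and 608 in tumor IP. The groups overlap through tumor IP replicate 3, and the log2 fold of -0.49 ± 0.20 did not pass (adjusted p = 0.0631); without that library it was -0.79 (adjusted p = 0.00235), and AZD over tumor then was 0.62 (adjusted p = 0.00546) in place of 0.33 ± 0.20 (adjusted p = 0.18). Homer2 was at 150, 161 and 146 CPM in the control IP libraries, 63.9, 89.4 and 105 in those of tumor and 48.8, 77.4 and 81.0 in those of AZD. It fell in tumor (-0.80 ± 0.20, adjusted p = 0.00786) and was lower than control with AZD too (-1.14 ± 0.20, adjusted p = 0.00189), with AZD overlapping tumor (-0.34 ± 0.20, adjusted p = 0.167, or -0.51 with adjusted p = 0.0315 without tumor IP replicate 1).

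Homer3 rose in tumor from a low level. It was at 3.16, 3.02 and 3.26 CPM in the control IP libraries, 6.67, 6.21 and 6.55 in those of tumor and 1.88, 0.738 and 1.19 in those of AZD. The 3 groups did not overlap, with log2 folds of 1.07 ± 0.25 (tumor over control, adjusted p = 0.00499), -2.46 ± 0.27 (AZD over tumor, adjusted p = 3.12e-05) and -1.39 ± 0.28 (AZD over control, adjusted p = 0.00352). In input it went from 4.53, 4.28 and 4.67 to 12.1, 9.57 and 8.40 CPM and stood at 5.01, 3.83 and 3.78 with AZD, so that AZD input overlapped control input. Homer3 lies at chr8:70282880-70294361 (GRCm38.p6) and overlaps Ddx49 on the opposite strand, and the sources used here do not say whether the counting used strand. Ddx49 stood at 0.13 ± 0.11 in tumor over control IP (adjusted p = 0.376). It was higher in AZD IP than in tumor IP (0.65 ± 0.11, adjusted p = 0.000536), opposite to Homer3. Ddx49 averaged 454.8 counts against 108.3 for Homer3. Tumor input libraries held 849, 611 and 408 unscaled Ddx49 counts. Control input libraries held 387, 371 and 315, and AZD input libraries 396, 338 and 365. These counts are not on a common scale, since tumor input totals were 17853365 to 23448015, against 15300374 to 17839717 in control input and 14735054 to 19742504 in AZD input. Tumor log2 ratios of IP over input were -1.01, -0.71 and -0.36 (Ddx49) and -0.82, -0.58 and -0.33 (Homer3). AZD ratios were 0.48, 0.38 and 0.26 (Ddx49) and -1.21, -1.81 and -1.34 (Homer3). The part of Ddx49 reads in the Homer3 counts was not tested.

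Baiap2, which encodes the actin and membrane regulator IRSp53, was at 323, 259 and 287 CPM in the control IP libraries, 174, 197 and 219 in those of tumor and 277, 387 and 366 in those of AZD, with tumor below both groups (log2 folds -0.53 ± 0.14 and 0.78 ± 0.14, adjusted p = 0.0107 and 0.000836). The Lrrtm genes encode postsynaptic adhesion proteins that bind neurexins, and 3 of the 4 did not pass in tumor IP, with log2 folds from -0.22 to 0.07. Lrrtm3 rose in IP from 105, 98.3 and 102 to 135, 129 and 124 CPM (0.37 ± 0.08, adjusted p = 0.0026) and in input from 85.6, 81.7 and 93.2 to 145, 125 and 113 CPM (0.55 ± 0.13, adjusted p = 0.00564), and it stayed above control with AZD in both fractions (0.27 ± 0.08 in IP and 0.71 ± 0.13 in input). The AZD call against control in IP was lost without control IP replicate 2 or 3 or AZD IP replicate 2 (adjusted p from 0.05 to 0.0786). Lrrtm1, Lrrtm2 and Lrrtm3 each lie within an alpha-catenin gene (Ctnna2, Ctnna1 and Ctnna3). Ctnna3, with 73.6 counts on average against 2593.4 for Lrrtm3, stood at -0.67 ± 0.26 in tumor over control IP (adjusted p = 0.0504), opposite to Lrrtm3. Ctnna2 averaged 4977.8 counts against 755.9 for Lrrtm1. Its log2 ratios of IP over input were 0.05, 0.01 and 0.24 in tumor and 0.60, 0.69 and 0.52 with AZD. Those of Lrrtm1 were 0.16, 0.13 and 0.02, then 1.00, 0.79 and 0.39. The ratios of Ctnna1 were -0.30, 0.03 and -0.11 in tumor and -0.85, -0.43 and -0.25 with AZD, which overlap. Those of Lrrtm2 were 0.264, 0.377 and 0.165, then 0.797, 0.601 and 0.381, and its AZD minus tumor difference did not pass. The part of host gene reads was not tested.

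Whole tissue was compared in the same way. In tumor input 24 members fell and 4 rose against control input, where 23.6% of 15511 genes fell and 24.5% rose (48.1% called), and the median log2 fold of the members was -0.75. The groups did not overlap in 31 of 37 members, against 59.9% of all genes. Beyond the genes already given, Grm7 fell from 106, 108 and 109 to 30.6, 60.5 and 61.7 CPM in input, and Shank3 from 150, 183 and 156 to 59.7, 92.1 and 109. Whether the change in IP differed from that in input was tested directly as the difference of the 2 changes. It passed for 0 of 37 members, with 0 at an unadjusted p under 0.05 and 0 by DESeq2 (11 of 16016 genes, 0.0687%, passed, 0.05% above 0 and 0.0187% below), 6 members had ratios that did not overlap, against 15.2% of genes, and the members' differences had a median of 0.03 and ran from -0.21 (Lrrtm3, standard error 0.14) to 0.36 (Grin2d, standard error 0.31). With the pairs as a block 0 of 37 passed as well. The standard errors of the unpaired fit reached 0.49 (Grm3), although the paired log2 ratios of Grm3 were 0.16, 0.07 and 0.12 for control and 0.23, 0.18 and 0.14 for tumor (blocked difference 0.06, adjusted p = 0.921).

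The next comparison asked how AZD8055 alters these levels in tumor mice. In AZD IP against tumor IP, 19 members were higher and 7 lower, where 25.1% of 15734 genes were higher and 33.5% lower (58.7% called), and the members' median log2 fold was 0.35 against -0.09 for all genes. The libraries did not overlap in 23 of 37 members, against 63.4% of all genes. Scaled by library totals the split was 17 higher and 9 lower, since all genes then shift by -0.13. In AZD input against tumor input 0 members were higher and 4 lower (Grin1, Grin3a, Grik4 and Homer3), where 7.89% of 15511 genes were higher and 9.17% lower (17.1% called), and libraries did not overlap in 5 members, against 34.4% of genes. That count fell to 2 without AZD input replicate 2. The 7 excitatory neuron markers were all higher in AZD IP than in tumor IP (median 1.17), and all 7 markers each of oligodendrocytes, microglia, endothelial cells with pericytes, and dividing cells were lower (medians -1.98, -2.32, -2.17 and -2.47). Their part in the members' change was not tested.

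These comparisons share the tumor IP libraries, so the values stand side by side as measured. Against control IP, 1 member was higher in AZD IP (Lrrtm3) and 10 lower (Grin2c, Grin2d, Grik1, Grik3, Grm3, Grm4, Shank1, Shank3, Homer2 and Homer3), where 16% of genes were higher and 17.4% lower (33.3% called), and 26 did not pass. The libraries did not overlap in 18 members, against 52.1% of genes. The count of 11 fell to 6 without control IP replicate 2, 6 of the 11 calls held whichever 1 library was left out, and under library totals 0 were higher and 11 lower. The Grik3 call (-0.29 ± 0.10, adjusted p = 0.0422) was lost when any 1 control IP library, or AZD IP replicate 1 or 3, was left out (adjusted p from 0.0588 to 0.144). In input 24 members were lower and 2 higher with AZD than in control, where 16% of genes were lower and 20.7% higher (36.8% called), with a median of -0.62 and no overlap in 31 members, against 57.1% of genes. That count of 26 fell to 14 without AZD input replicate 1 and to 17, 16 and 15 without control input replicates 1, 2 and 3, and 13 of the 26 calls held whichever 1 library was left out.

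**Figure D4:**
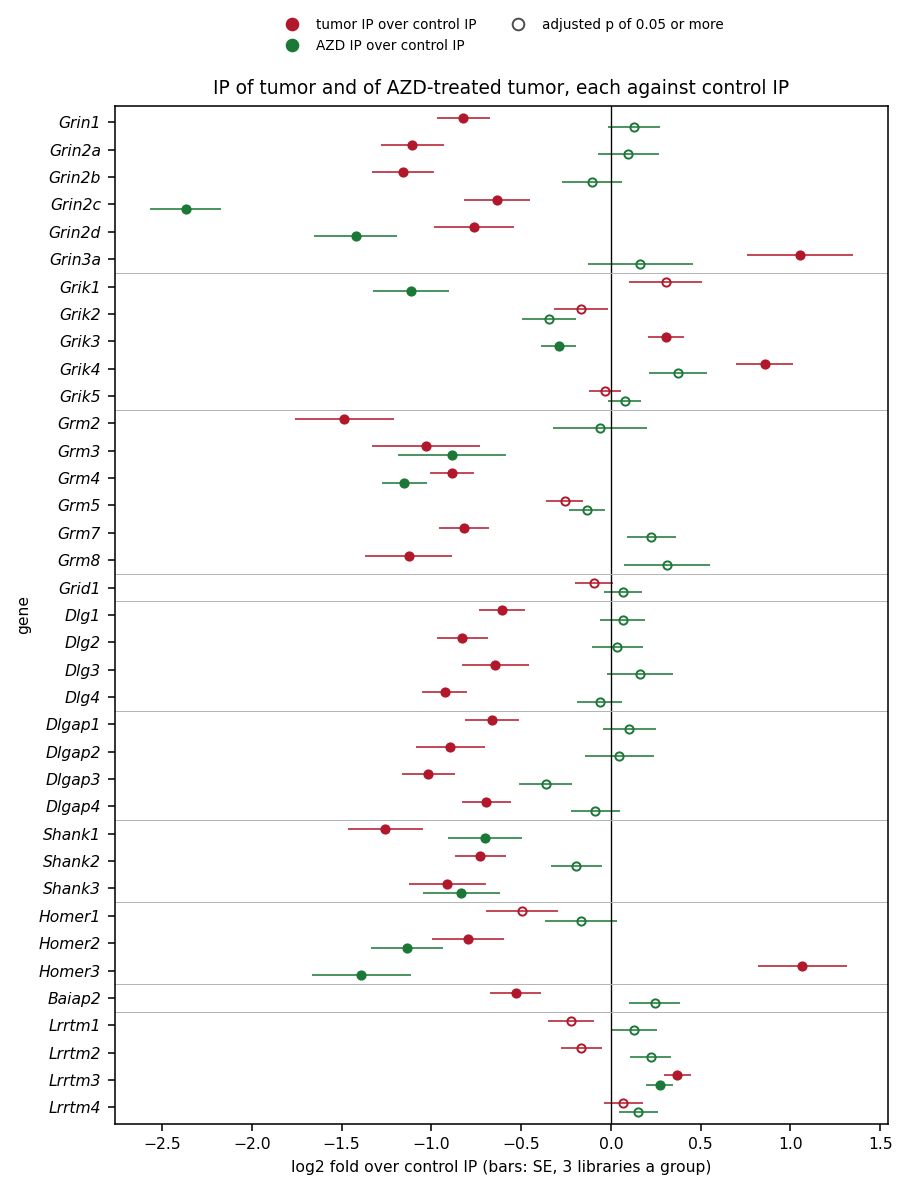
Log2 fold over control IP of tumor IP (red) and AZD IP (green) for each of the 37 genes, with standard errors from the fit of 9 IP libraries; open symbols have an adjusted p of 0.05 or more. Both folds use the same control libraries. The green symbols of the Dlg genes and of the Dlgap genes other than Dlgap3 lie near 0. That of Dlgap3 is open and lies left of 0, as do the filled ones of Grin2c, Grik1, Grm4, Shank3, Homer2 and Homer3.

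IP was then set against input within a condition. In control and tumor, some markers of other cell types were about as high in IP as in input: the astrocyte sum was 1817 to 2157 CPM in IP against 1861 to 1982 in input for control, and 1368 to 1619 against 1602 to 1616 for tumor, and the inhibitory neuron sum in control was 969 to 1109 against 971 to 1148. Others were lower in IP without overlap. The endothelial and pericyte sum was 174 to 237 CPM against 316 to 342 in control, and 168 to 202 against 241 to 285 in tumor. The oligodendrocyte sum in control was 2125 to 2613 against 2747 to 3027. The oligodendrocyte precursor and glioma lineage sum in tumor was 4525 to 4883 against 5642 to 6555. With AZD the astrocyte sum was 351 to 468 CPM in IP against 1524 to 1810 in input. Their part in the members' ratios was not tested. In control, 5 members were higher in IP and 7 lower, where 17.7% of 14958 genes were higher and 18.8% lower (36.5% called), and 18 members did not overlap, against 49.4% of genes. Numbers were taken to pair input with IP, and with the replicate number as a block 7 members were higher and 12 lower. The shares of all genes above are from the fit without the block, and shares with the block are not given here. Scaled by library totals 4 were higher and 11 lower, and in 1 fit of all 18 libraries 3 were higher and 1 lower (Dlg3, Homer1, Lrrtm2 and Grin1). Dlg3, which encodes SAP102, was at 405, 309 and 391 CPM in control IP against 196, 201 and 197 in input (log2 fold 0.88 ± 0.10, adjusted p = 5.12e-05), and Homer1 at 665, 572 and 678 against 368, 319 and 452 (0.73 ± 0.12, adjusted p = 0.000522). Grin1 was lower in IP, at 212, 172 and 177 against 351, 334 and 298 CPM (-0.82 ± 0.10, adjusted p = 6.73e-05). None of these 3 overlapped between fractions.

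In tumor 0 of 37 members passed between IP and input, where 5.09% of 15245 genes did (2.11% higher, 2.98% lower), and 5 did not overlap, against 27.6% of genes. At an unadjusted p under 0.05 the count was 4, and DESeq2 called 3 (Grin1, Dlg3 and Homer3). With the replicate number as a block 9 were higher and 6 lower, among them Dlg3 at 1.04 (adjusted p = 2.77e-10), Homer1 at 0.69 (adjusted p = 3.7e-07) and Grin1 at -0.75 (adjusted p = 1.8e-07). The 5.09% of all genes is from the fit without the block. The share with the block is not given here, so the blocked counts cannot be set against it. Each tumor pair showed the directions of Dlg3 and Grin1: the log2 ratio of IP over input was 1.05, 1.13 and 0.91 for Dlg3 and -0.56, -0.77 and -0.90 for Grin1. Without the block Grin1 passed when tumor input replicate 1 was left out (-0.93, adjusted p = 0.0128) and Dlg3 when tumor IP replicate 1 was left out (1.20, adjusted p = 0.0461).

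With AZD 21 members were higher in IP than in input and 4 lower, where 29% of 15040 genes were higher and 32.5% lower (61.5% called), and the members' median log2 fold was 0.60. The libraries did not overlap in 28 members, against 67.9% of genes. Scaled by library totals the split was 17 higher and 8 lower, since all genes shift by -0.28. Grin1 turned from depleted to enriched: its log2 ratio was -0.73, -0.96 and -0.75 for the control pairs, -0.56, -0.77 and -0.90 for the tumor pairs and 0.84, 1.05 and 0.72 for the AZD pairs. All AZD pairs lay above 0 and all others below. Grin2c went the other way within AZD, with paired ratios of -1.90, -2.11 and -1.98 against -0.86, -0.22 and -0.40 in control, and Homer3 stood at -1.21, -1.81 and -1.34.

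The difference of these ratios between AZD and tumor passed for 8 members above 0 and 3 below, where 12.3% and 20.8% of 16016 genes passed (33.1% called), and the ratios did not overlap in 28 members, against 56.2% of genes. The largest were Grin1 at 1.64 ± 0.24 (adjusted p = 9.5e-05) and Grin2c at -1.65 ± 0.29 (adjusted p = 0.000562). With the pairs as a block 22 passed above 0 and 5 below, and with library totals 3 and 5, since all genes shift by -0.18. The shares of all genes above are from the main fit, and those with the block or with library totals are not given here. The count of 11 fell to 5 without AZD input replicate 1 and to 6 without tumor IP replicate 1, AZD IP replicate 2 or tumor input replicate 2 or 3, and rose to 23 without tumor input replicate 1. Astrocyte markers stood at -2.20 and excitatory neuron markers at 1.16 in the same contrast (medians of 7), and their part in it was not tested.

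**Figure D5:**
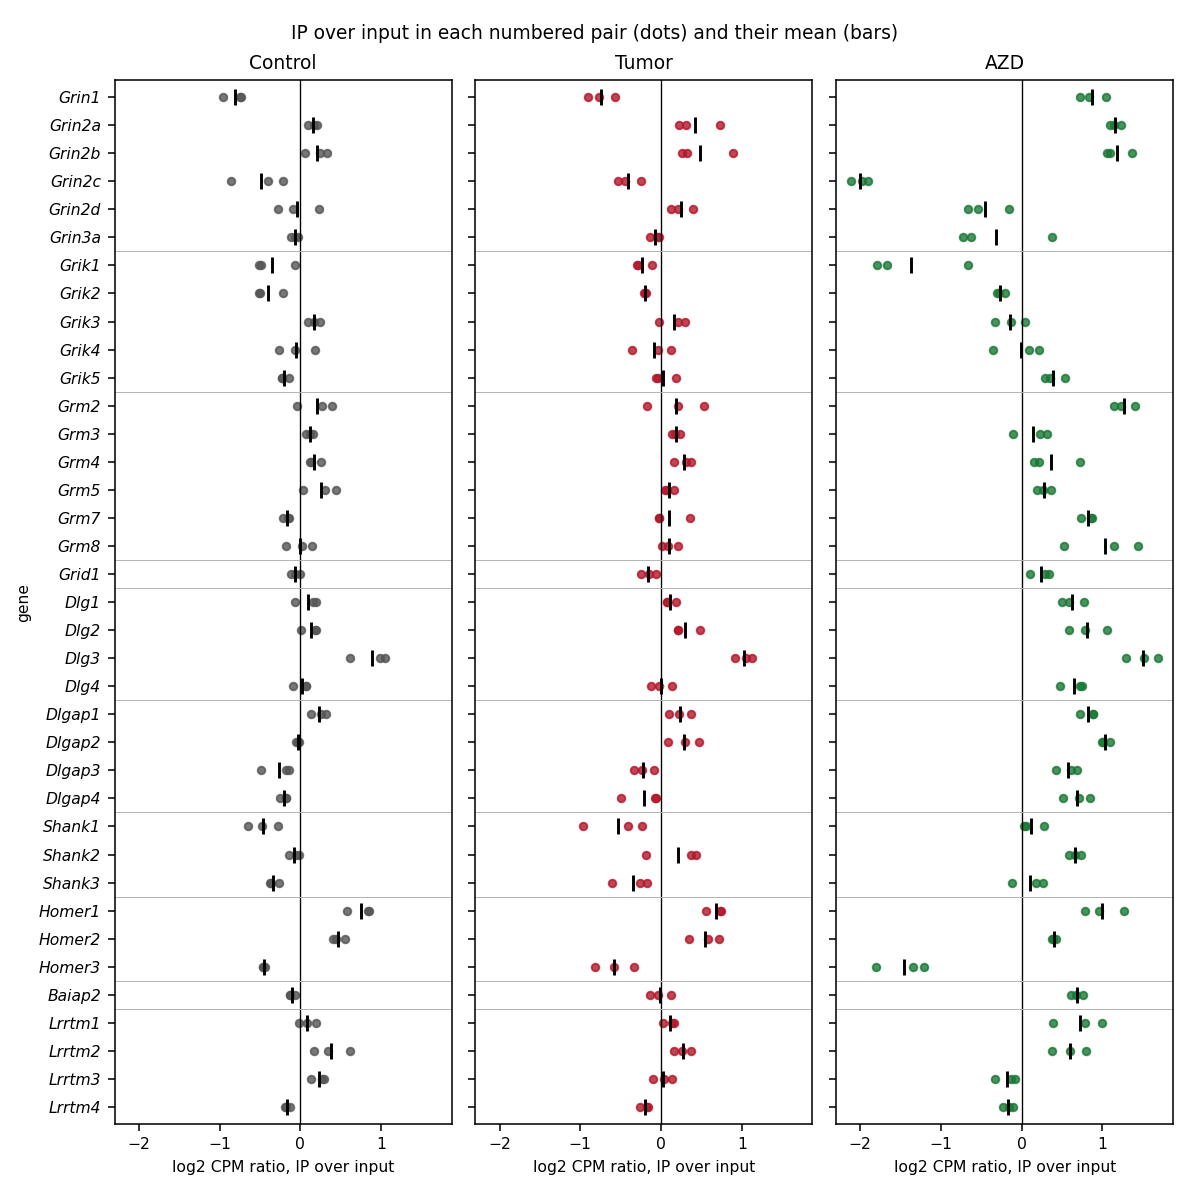
Log2 ratio of CPM in IP over input for each of the 37 genes in the 3 numbered pairs of control, tumor and AZD (dots), with their mean (bars); 0 means equal levels. Grin1 lies left of 0 in control and tumor and right of it with AZD, and Dlg3 and Homer1 lie right of 0 in all 9 pairs.

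Partner genes of the same pathways were read from lists that had been drawn up with earlier results known. For all these lists, the shares over all 15734 genes tested were 20.9% lower and 26.1% higher in tumor IP than in control IP. In AZD IP against tumor IP they were 25.1% higher and 33.5% lower. Of 14 tested partners of the metabotropic receptors 12 fell in tumor IP and 0 rose, with a median log2 fold of -0.74, among them Trpc4, a cation channel (-0.91 ± 0.10), Gnao1, the alpha subunit of Go (-0.69 ± 0.10), and Ncdn, which binds Grm5 (-0.79 ± 0.11). Gna11 (-0.05 ± 0.08) and Rgs4 (-0.52 ± 0.27) did not pass. In AZD IP 12 of the 14 were higher than in tumor IP, Trpc4 by 1.10 ± 0.10 and Ncdn by 1.03 ± 0.11, whereas Gnao1 was at 0.10 ± 0.10 and stayed below control (-0.59 ± 0.10, adjusted p = 0.00115).

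Of 23 other postsynaptic density genes 14 fell and 1 rose in tumor IP (median -0.62), and 16 were higher and 2 lower in AZD IP than in tumor IP (median 0.66). Begain, a binding partner of PSD-95, fell by 0.97 on the log2 scale, and Cnih2, an AMPA receptor auxiliary subunit, fell by 0.57 and was 0.69 ± 0.10 higher with AZD. Of the 23, 0 passed between AZD IP and control IP, where 33.3% of all genes were called, with 2 at an unadjusted p under 0.05 and 1 by DESeq2. Among 14 tested receptor ligands and auxiliary subunits, 7 fell and 3 rose in tumor IP. C1ql2, a secreted protein that binds kainate receptors, rose by 4.43 ± 0.32 in IP and 4.34 ± 0.33 in input (adjusted p = 2.48e-06 and 6.71e-06), and it was lower in AZD IP than in tumor IP by 3.21 (log2 fold -3.21 ± 0.30). Neto2, an auxiliary subunit of kainate receptors, rose in tumor IP (0.57 ± 0.10) and was lower with AZD (-1.10 ± 0.10). Elfn1, an adhesion protein that binds group III metabotropic receptors, known mainly from inhibitory neurons, did not pass in tumor IP (0.37 ± 0.15, adjusted p = 0.0654) and was lower in AZD IP (-2.38 ± 0.17, adjusted p = 1.42e-06). Grin3b, a further NMDA receptor subunit, did not pass in tumor IP (0.77 ± 0.38, adjusted p = 0.119), and the metabotropic receptor Grm6 did not pass the filter on low counts.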

How the data were processed

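The authors deposited a table of read counts per gene for 18 libraries. Per the labels' protocols, the RNeasy Mini kit gave the RNA, and the NEBNext Ultra Directional kit the libraries. STAR, DESeq2 and the build mm10 stand in the submitters' processing notes. Not given in the sources used here are versions, the counter, the annotation and whether strand was used. Groups came from the labels, which do not tie a number to 1 mouse, so p-values cover the spread among these libraries and it may be technical. Library totals ran from 13561511 to 34178417 counts; their 3 libraries a group limit precision.

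From the deposited counts, edgeR 4.0.16 (R 4.3.3) filtered genes with filterByExpr, scaled by TMM and tested with the quasi-likelihood F test, adjusted by Benjamini-Hochberg over all genes tested at 0.05. Conditions were compared within the 9 libraries of a fraction, IP with input within the 6 of a condition, and differences of IP over input across all 18, in 11 comparisons. CPM are counts scaled to a common total with the TMM factors, and paired ratios add 0.5 CPM. The fits were also run on simulated counts, drawn independently for each library and with few genes changed. Such counts hold no pairing of input with IP, so they do not test its effect. Alternatives were DESeq2 1.42.0, library totals, no filter, the replicate number as a block, 1 fit of all 18 libraries, and leaving out each library.

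Numbers were checked over 14205 genes: deviations of same-numbered input and IP had correlations of 0.293 to 0.329 (control), 0.635 to 0.856 (tumor) and 0.291 to 0.577 (AZD). In each condition all 3 input and all 3 IP libraries correlated best with their own number, so numbers were taken to pair input with IP. Between conditions same-numbered libraries ran from -0.11 (control and AZD IP) to 0.353 (tumor and AZD input). That upper value exceeds those of control, so the size of the correlation alone does not establish the pairing. The members, partner and marker lists were chosen with earlier results of these data known. All members could be named, and of each partner list per comparison at most 3 genes of smallest p and at most 2 not passing. Overlapping genes (Ddx49, Ctnna1, Ctnna2, Ctnna3) were named after their values were seen. Some genes of the partner and marker lists are not reported here by name.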

Additional observations from a re-analysis of the deposited data

Results flagged for a closer look

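For 11 members the log2 ratio of IP over input differed between AZD and tumor by a test of that difference itself (edgeR's quasi-likelihood test across all 18 libraries, adjusted p under 0.05, 3 libraries a group). It was above 0 for Grin1 (1.64), Dlgap4 (0.93), Dlgap3 (0.81), Grm7 (0.76), Baiap2 (0.71), Dlg4 (0.66), Lrrtm1 (0.62) and Grid1 (0.41), and below 0 for Grin2c (-1.65), Grik1 (-1.20) and Homer3 (-1.18). Grin1, Grin2c, Grik1, Dlgap4 and Homer3 passed whichever 1 of the 12 libraries was left out, and the other 6 did not. Under library totals Grm7, Grid1, Dlg4, Dlgap3 and Lrrtm1 no longer passed. Lrrtm1 lies within Ctnna2, whose paired ratios were also higher with AZD than in tumor. The part of Ctnna2 reads in the Lrrtm1 counts was not tested. All AZD libraries carry another set name than the tumor libraries, so the set and the treatment cannot be told apart.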

How the results depend on the processing

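Over the 11 comparisons, counts of called members stayed within 1.5 times of those reported in 10 under DESeq2, 10 under library totals, 10 without the filter and 8 with the replicate number as a block, and in 7 of 9 under 1 fit of all 18 libraries. In control IP against input the count of 12 became 19 with the replicate block and 4 in the fit of all 18 libraries. In tumor IP against input the count of 0 became 3 under DESeq2, 1 under library totals, 1 without the filter, 15 with the replicate block and 2 in the fit of all 18 libraries. The AZD minus tumor difference of IP over input went from 11 to 27 with the replicate block. The cause was not tested. Shares of all genes called with the block are not given here. In the comparisons between conditions, where the numbers are not known to pair libraries, no count moved by over 1.5 times under the block. With 1 library left out, the counts ran from 24 to 29 (tumor against control, IP), 27 to 29 (input), 23 to 26 (AZD against tumor, IP), 2 to 5 (input), 6 to 10 (AZD against control, IP), 14 to 23 (input), 8 to 11 (IP against input, control), 0 to 1 (tumor), 23 to 28 (AZD), 0 to 0 (tumor minus control difference) and 5 to 23 (AZD minus tumor difference). Of 4847 member results under alternatives, 4504 kept direction and side of the threshold, 217 lost the call, 125 gained it and 1 reversed: Grin3a in AZD IP against control IP, which ran from -0.41 without AZD IP replicate 1 to 0.40 without AZD IP replicate 2. Counts were low for Homer3 (20 to 314 a library) and Grin2d (24 to 186), which limits their precision.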
